A study of Saccharomyces cerevisiae with 8 samples.

Results

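The tricarboxylic acid (TCA) cycle of yeast mitochondria oxidizes acetyl groups to CO2 and passes electrons to the respiratory chain. The transcripts of 10 of its enzyme genes, among 6328 genes with RNA-seq values, were followed in a yeast strain that ferments xylose without oxygen. The 10 genes were chosen by name as the mitochondrial enzymes of the cycle other than succinate dehydrogenase, and all 10 were found and passed the filter on low values in every comparison. *CIT1* encodes citrate synthase, *ACO1* aconitase, *IDH1* and *IDH2* the regulatory and catalytic subunits of NAD-dependent isocitrate dehydrogenase, and *KGD1* and *KGD2* the E1 and E2 subunits of 2-oxoglutarate dehydrogenase. *LSC1* and *LSC2* encode the alpha and beta subunits of succinyl-CoA ligase, *FUM1* fumarase, and *MDH1* the mitochondrial malate dehydrogenase.

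When oxygen is absent, budding yeast does not run these reactions as a full circle. An oxidative branch leads from citrate to 2-oxoglutarate, the carbon skeleton of glutamate, and a reductive branch leads from oxaloacetate through malate and fumarate to succinate. Glucose represses most genes of the cycle. The Hap2/3/4/5 complex, whose activation subunit is Hap4, activates them on respired carbon sources, and the retrograde factors Rtg1 and Rtg3 maintain the genes for the steps up to 2-oxoglutarate when respiration is impaired.

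The experiment asked how *AZF1*, which encodes a zinc finger transcription factor that responds to sugars, acts on the transcriptome during anaerobic growth on 2% xylose. The 8 libraries form 4 groups of 2, with replicates A and B collected on different days. WT is *Saccharomyces cerevisiae* Y128, *azf1Δ* is the same strain with the *AZF1* locus deleted, MoBY control carries an empty MoBY 2.0 plasmid, and *AZF1* MoBY carries that plasmid with *AZF1*. MoBY 2.0 plasmids are high-copy vectors on which a yeast gene keeps its own flanking sequence, and their marker gives resistance to G418. G418 was present at 200 mg/L in cultures of both plasmid groups and absent from the rest, so that the plasmid and the drug cannot be told apart where MoBY control is compared with WT. All 4 groups share the Y128 background, which carries the engineered xylose pathway (xylose isomerase, xylulokinase and transaldolase) and null mutations in *ISU1*, *HOG1*, *GRE3* and *IRA2*. *ISU1* encodes a scaffold for iron-sulfur cluster assembly, and aconitase and Sdh2 are iron-sulfur proteins. Y128 is the strain in the labels, whereas the study's methods give Y133, from which the *KanMX* marker had been removed. How many clones were grown was not given in the sources used here.

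Abundance was given as RPKM, a read count scaled by gene length and by the mapped reads of the library, so levels of different genes can be set side by side. The steps between low RPKM values imply 6180000 to 7140000 mapped reads per library, and the members drew between 245 and 5186 implied reads each, which gives a counting error of at most 6.39%. *AZF1* itself was at 13.2 and 11.6 RPKM in WT replicates A and B and at 0.0501 and 0.120 RPKM in the *azf1Δ* libraries. Both *azf1Δ* values correspond to fewer than 3 reads. *AZF1* stood at 13.3 and 14.3 RPKM in MoBY control and at 74.0 and 73.5 RPKM in *AZF1* MoBY. The *azf1Δ* and *AZF1* MoBY libraries thus matched their labels. MoBY control lay above WT without overlap, but the difference did not pass the test used below, so *AZF1* is no check of those labels. RNA came from whole cultures, so a lower level in each cell and a smaller share of expressing cells cannot be told apart.

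In WT the cycle genes were well expressed. *ACO1* was the most abundant member with 243 ± 13.1 RPKM (mean ± SD, n = 2), a level above that of 95.2% of all genes, and *CIT1* followed with 222 ± 5.44 RPKM. *KGD2* was the lowest with 56.3 ± 1.38 RPKM, still above 81.3% of all genes. *IDH1*, *LSC1* and *MDH1* formed the next tier at means of 155.9, 148.6 and 148.1 RPKM, and their replicates overlapped, so these 3 levels could not be ordered. *KGD1*, *FUM1*, *LSC2* and *IDH2* lay between 95.7 and 112.6 RPKM on average, with overlap between *FUM1* and *LSC2*. Subunits of one enzyme were therefore not at equal transcript levels, with *IDH1* above *IDH2*, *LSC1* above *LSC2* and *KGD1* above *KGD2* in each WT library. *KGD2* remained the lowest member in all 4 groups, while the highest was *ACO1* in WT and *azf1Δ* and *IDH1* in both plasmid groups, where it overlapped *ACO1* in MoBY control.

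**Figure D1:**
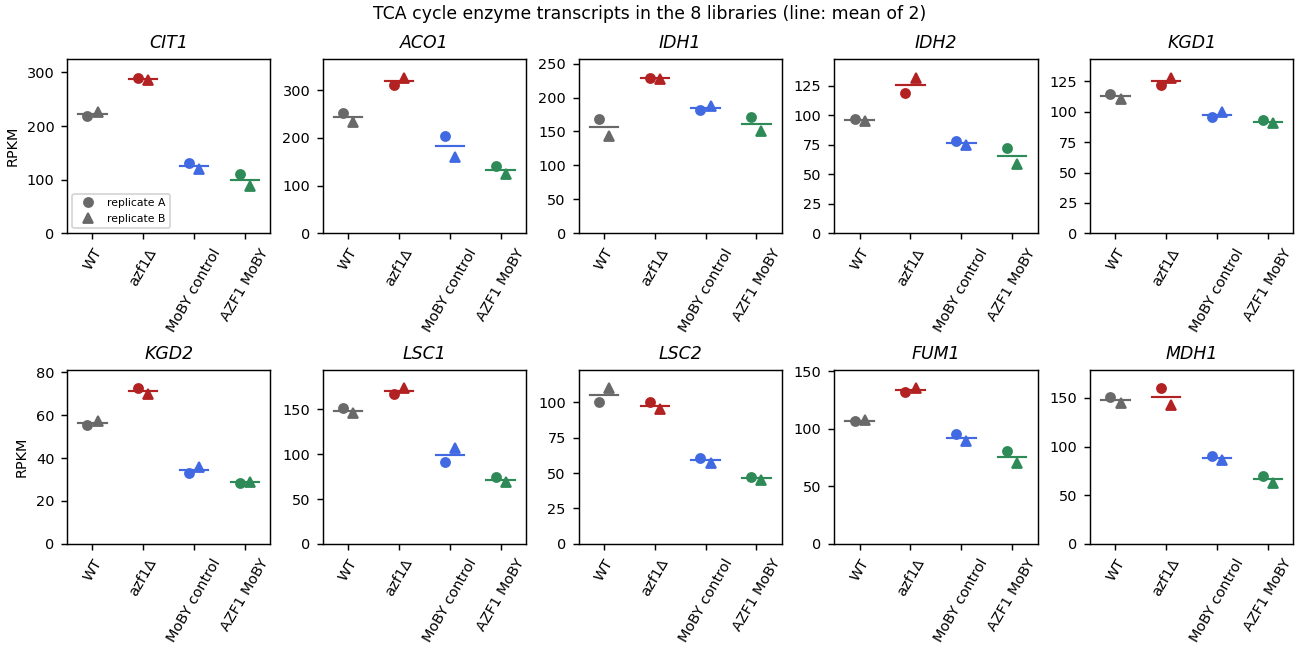
RPKM (y axis, linear from 0, scaled for each panel) of the 10 TCA cycle genes, 1 panel per gene, by group (x axis), with a circle for replicate A, a triangle for replicate B and a line at the group mean. *ACO1* and *CIT1* reach 319 and 288 RPKM on average in *azf1Δ*, and *KGD2* lies lowest in every group, down to 28.6 RPKM in *AZF1* MoBY.

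Summed over the 10 genes, the members reached 1414 and 1375 RPKM in the WT libraries, 1703 and 1716 in *azf1Δ*, 1062 and 1018 in MoBY control and 890.5 and 785.8 in *AZF1* MoBY. The 4 groups did not overlap in this sum. Relative to the WT mean the sum was 122.6% in *azf1Δ*, 74.6% in MoBY control and 60.1% in *AZF1* MoBY. The *AZF1* MoBY replicates stood furthest apart, with replicate A above B for 9 of the 10 members, by a median of 0.17 on the log2 scale and by up to 0.34 for *CIT1*.

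The first comparison asked what loss of *AZF1* did to these genes. Most of the cycle had more transcript in the deletion strain, and 1 member passed the test. Changes here and below are log2 ratios of RPKM + 1 from limma's moderated linear model, each with its standard error, and a gene was called when its Benjamini-Hochberg p, adjusted over all genes tested, was under 0.05. *IDH1* rose, *LSC2* and *MDH1* had overlapping groups, and for the remaining 7 members each deletion library exceeded each WT library without a call.

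At the entry to the cycle, *CIT1* read 218 and 226 RPKM in WT and 290 and 286 RPKM in *azf1Δ*. *ACO1*, the next step, read 252.5 and 234 RPKM in WT and 311 and 326 RPKM in *azf1Δ*. Both genes lay higher in each deletion library than in each WT library, with log2 differences of 0.37 ± 0.07 and 0.39 ± 0.08, and both missed the threshold in limma (adjusted p = 0.0637 and 0.0697). *IDH1* read 168 and 144 RPKM in WT and 229.1 and 227.5 RPKM in *azf1Δ*. The deletion libraries agreed closely while the WT libraries differed more than those of any other member. *IDH1* rose 1.47-fold, or 0.55 ± 0.09 in log2 with a 95% interval of 0.33 to 0.77 (limma, adjusted p = 0.0447). Its partner *IDH2* read 96.3 and 95.0 RPKM in WT and 119 and 132 RPKM in *azf1Δ*, which was higher in both libraries at 0.38 ± 0.08 (limma, adjusted p = 0.0847).

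From 2-oxoglutarate to succinate the estimates were smaller. *KGD2* read 55.3 and 57.3 RPKM in WT and 72.5 and 70.0 RPKM in *azf1Δ*, and its complex partner *KGD1* read 113 ± 2.76 RPKM in WT and 125 ± 4.29 RPKM in *azf1Δ* (mean ± SD, n = 2). Neither pair of groups overlapped, but the difference was 0.33 ± 0.08 for *KGD2* and 0.15 ± 0.08 for *KGD1* (limma, adjusted p = 0.102 and 0.369). *LSC1* read 151 and 146 RPKM in WT and 168 and 174 RPKM in *azf1Δ*, a difference of 0.20 ± 0.07 (limma, adjusted p = 0.241). *LSC2* was the 1 member with a lower mean after deletion, at 100.4 and 109.9 RPKM in WT and 100.4 and 95.0 RPKM in *azf1Δ*. Its groups touched at 100.4 RPKM, and the interval of its log2 difference ran from -0.30 to 0.10.

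In the last steps, *FUM1* read 106.9 and 107.6 RPKM in WT and 132.5 and 135 RPKM in *azf1Δ*, a difference of 0.32 ± 0.07 (limma, adjusted p = 0.0974). *MDH1* read 151 and 145 RPKM in WT and 159.8 and 143 RPKM in *azf1Δ*, so that the deletion libraries enclosed the WT libraries. Its interval, -0.17 to 0.23, leaves room for a small change in either direction. *MDH1* and *FUM1* catalyze neighboring reactions, but only *FUM1* had groups that did not overlap, and the difference between the genes was not tested.

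Across the members, 1 of 10 was called higher, against 0.942% of the 5944 genes tested, and 0 were called lower, against 0.791%. Over all genes that was 56 higher and 47 lower, and 26 higher and 39 lower after median-ratio rescaling. At an unadjusted p under 0.05 there were 7 members, all higher, and 1048 of the 5944 genes in either direction. The groups did not overlap for 8 of 10 members, all higher in *azf1Δ*, against 30.7% of all genes. The median difference was 0.33 for the members and 0.04 for all genes. The call of *IDH1* was lost without the filter on low values (adjusted p = 0.0869), after median-ratio rescaling (0.0602) and without the variance trend (0.147). Over the alternatives that kept every library, its adjusted p in limma ran from 0.029 to 0.199. With 1 library fewer, 0 of all genes were called, so those fits do not bear on its stability.

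The second comparison asked what extra copies of *AZF1* did, with both groups carrying the plasmid and grown with G418. For each of the 10 members the *AZF1* MoBY values lay under both control values, and the falls of *LSC1* and *MDH1* passed the test. *LSC1* read 91.8 and 107 RPKM in MoBY control and 75.1 and 68.6 RPKM in *AZF1* MoBY. It fell by 0.46 ± 0.11 on the log2 scale, a fold of 0.727 with a 95% interval of -0.74 to -0.18 in log2 (limma, adjusted p = 0.0452). *MDH1* read 89.9 and 86.2 RPKM in MoBY control and 70.0 and 62.7 RPKM in *AZF1* MoBY. It fell by 0.40 ± 0.10, a fold of 0.755 with an interval of -0.65 to -0.16 (limma, adjusted p = 0.0448).

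Of the oxidative branch, *CIT1* read 132 and 119 RPKM in MoBY control and 111 and 87.4 RPKM in *AZF1* MoBY. *ACO1* read 204 and 161 RPKM against 142 and 124 RPKM. Both were lower without overlap, but each had a wide spread in a group, and their differences of -0.35 ± 0.13 and -0.45 ± 0.14 missed the threshold (limma, adjusted p = 0.143 and 0.0892). *IDH1* read 181 and 187 RPKM against 171 and 150.1 RPKM, and *IDH2* read 78.25 and 75.1 RPKM against 72.0 and 58.5 RPKM. The isocitrate dehydrogenase subunits thus differed by -0.20 ± 0.10 and -0.24 ± 0.12, with intervals that include 0 (limma, adjusted p = 0.231 and 0.262). With 1 library left out, the difference ran from -0.52 to -0.18 for *CIT1*, from -0.62 to -0.28 for *ACO1*, from -0.29 to -0.10 for *IDH1* and from -0.38 to -0.09 for *IDH2*.

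*LSC2*, the partner of *LSC1*, read 61.0 and 57.3 RPKM in MoBY control and 47.5 and 44.9 RPKM in *AZF1* MoBY, lower by -0.35 ± 0.10 (limma, adjusted p = 0.067). *FUM1* read 95.7 and 89.3 RPKM against 80.45 and 70.5 RPKM, a difference of -0.29 ± 0.10 (limma, adjusted p = 0.123). Neither 2-oxoglutarate dehydrogenase subunit passed, and *KGD1* had the smallest difference of the 10 members. *KGD2* read 33.1 and 36.0 RPKM against 28.4 and 28.8 RPKM and *KGD1* read 95.7 and 99.7 RPKM against 93.05 and 90.5 RPKM, with differences of -0.26 ± 0.11 and -0.09 ± 0.09 (limma, adjusted p = 0.161 and 0.536).

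In this comparison 2 of 10 members were called lower, against 6.17% of the 6029 genes tested, and 0 were called higher, against 10.2%. The all-gene split of 616 higher and 372 lower became 634 and 206 after rescaling. The groups did not overlap for 10 of 10 members, all lower in *AZF1* MoBY, against 28.1% of all genes. The median difference was -0.32 for the members and 0.00 for all genes. Both calls were lost without the filter (adjusted p = 0.0699 for *LSC1* and 0.0587 for *MDH1*), after median-ratio rescaling (0.0748 and 0.101) and without the variance trend (0.101 and 0.104). Over the alternatives that kept every library, the adjusted p in limma ran from 0.00922 to 0.101 for *LSC1* and from 0.0137 to 0.104 for *MDH1*. A shared fit of all 8 libraries called 5 members lower, adding *ACO1*, *LSC2* and *FUM1*, and leaving out either MoBY control library left 0 called. Without either *AZF1* MoBY library 0 of all genes were called, so those fits do not bear on the members.

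**Figure D2:**
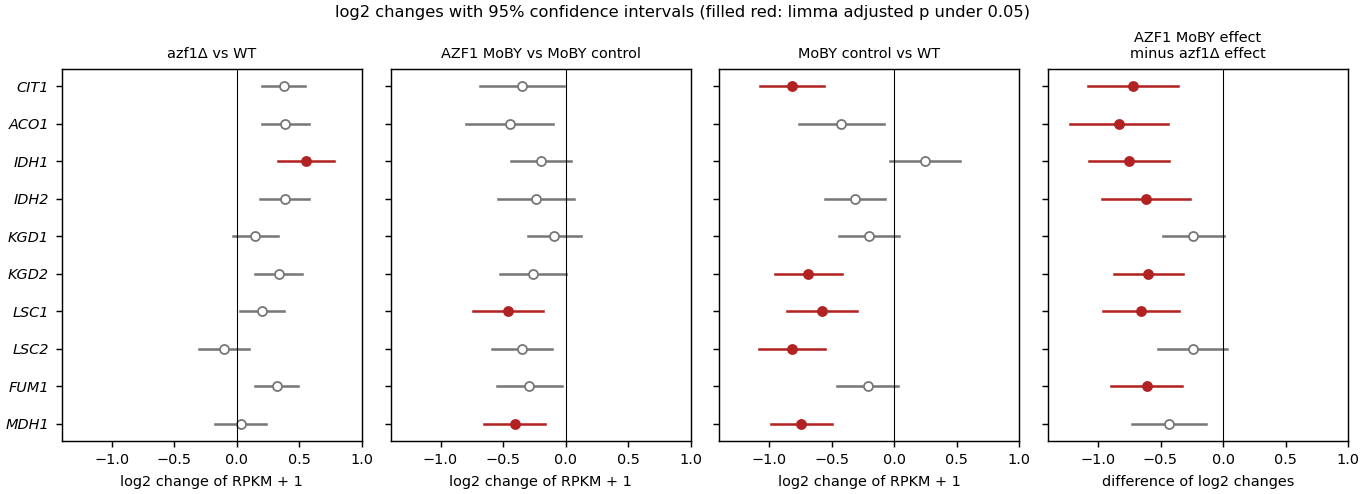
Log2 change of each TCA cycle gene in 3 comparisons and in the contrast of the *AZF1* MoBY response with that of *azf1Δ* (x axis, log2 of RPKM + 1), with points for the limma estimate, bars for its 95% interval and filled points where the adjusted p was under 0.05. *IDH1* is the filled point for *azf1Δ* at 0.55, *LSC1* and *MDH1* are filled for *AZF1* MoBY at -0.46 and -0.40, and the empty plasmid with G418 has 5 filled points between -0.82 and -0.58.

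The difference between these responses was tested directly in all 8 libraries, since neither comparison shares a library with the other. Extra *AZF1* was measured with the plasmid and G418, and deletion with neither. Gain against loss of *AZF1* and this difference in background cannot be told apart in the contrast. The response to extra copies of *AZF1* lay below the response to its deletion for 10 of 10 members, of which 7 were called. The calls covered the whole oxidative branch, with differences of -0.72 ± 0.16 for *CIT1*, -0.84 ± 0.17 for *ACO1*, -0.75 ± 0.14 for *IDH1* and -0.62 ± 0.15 for *IDH2* (limma, adjusted p = 0.0195, 0.0149, 0.0105 and 0.0298). They also included *KGD2* at -0.60 ± 0.12, *LSC1* at -0.66 ± 0.13 and *FUM1* at -0.61 ± 0.12 (limma, adjusted p = 0.0144, 0.0144 and 0.0146). *MDH1* stood at -0.43 ± 0.13 (adjusted p = 0.0568 in limma), while *KGD1* and *LSC2* were both at -0.24 with adjusted p = 0.172 and 0.223.

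Among the 6105 genes tested for this difference, 6.8% were called negative and 7.9% positive, where 7 and 0 of 10 members were called. The split over all genes was 482 positive and 415 negative, and 672 and 248 after rescaling. The median over the members was -0.61 and over all genes -0.04. Median-ratio rescaling raised the median of all genes by 0.12 to 0.08. Relative to the median of all genes the members stood at -0.57 before and -0.56 after rescaling, and *IDH2* was the 1 call lost (adjusted p = 0.0758). The number of calls was 3 without WT replicate B, 4 without *azf1Δ* replicate A, 1 without *azf1Δ* replicate B and 0 when *AZF1* MoBY replicate B was left out.

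The third comparison set the empty plasmid with G418 against WT and held the largest member differences of the 3 pairwise comparisons. It shares the WT libraries with the deletion comparison and the MoBY control libraries with the *AZF1* MoBY comparison, so its values are given for themselves. With the RPKM values listed above, MoBY control lay below WT without overlap for 9 members, against 32.6% of all genes, and above WT for *IDH1*, against 30.4%. *CIT1* fell by 0.82 ± 0.10, *LSC2* by 0.82 ± 0.11, *MDH1* by 0.74 ± 0.10, *KGD2* by 0.69 ± 0.11 and *LSC1* by 0.58 ± 0.12 in log2 (limma, adjusted p = 0.00303, 0.00339, 0.00355, 0.00716 and 0.0149). For *CIT1* this was a fold of 0.566 and for *LSC1* a fold of 0.669.

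The other 5 members did not pass in this comparison. *ACO1* differed by -0.42 ± 0.14 and *IDH2* by -0.32 ± 0.10 (limma, adjusted p = 0.0771 and 0.0675), and *FUM1* and *KGD1* by -0.21 ± 0.10 and -0.20 ± 0.10 with intervals that include 0. *IDH1* was the 1 member on the other side, at 0.24 ± 0.12 with an interval of -0.04 to 0.52. Thus 5 of 10 members were called lower, against 10.6% of the 5991 genes tested, and 0 higher, against 13.2%, with a median of -0.50 for the members and -0.02 for all genes. Leaving out either WT library left 0 calls, and leaving out MoBY control replicate A left *CIT1*, *LSC2* and *MDH1*.

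By position in the cycle, the 4 genes from citrate to 2-oxoglutarate had median differences of 0.39 after deletion, -0.29 with extra *AZF1* and -0.37 with the empty plasmid. The 4 genes from 2-oxoglutarate to succinate had medians of 0.17, -0.31 and -0.63 in the same order, and *FUM1* with *MDH1* had 0.17, -0.35 and -0.48. The stretches were not tested against each other.

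Transcript ratios between subunits of one enzyme varied most between groups for isocitrate and 2-oxoglutarate dehydrogenase. The RPKM ratio of *IDH1* to *IDH2* was 1.74 and 1.52 in WT, 1.93 and 1.73 in *azf1Δ*, 2.31 and 2.50 in MoBY control and 2.38 and 2.57 in *AZF1* MoBY. The ratio in each plasmid library was above that in each library without a plasmid, and the WT and *azf1Δ* ratios overlapped. The ratio of *KGD1* to *KGD2* was 2.07 and 1.93 in WT, 1.68 and 1.83 in *azf1Δ*, 2.89 and 2.77 in MoBY control and 3.27 and 3.14 in *AZF1* MoBY. Here none of the 4 groups overlapped, with *azf1Δ* lowest and *AZF1* MoBY highest. For succinyl-CoA ligase the ratio of *LSC1* to *LSC2* was 1.51 and 1.33 in WT, 1.67 and 1.83 in *azf1Δ*, 1.51 and 1.87 in MoBY control and 1.58 and 1.53 in *AZF1* MoBY. Its *AZF1* MoBY ratios lay above both WT ratios and below both *azf1Δ* ratios. MoBY control overlapped *azf1Δ* and *AZF1* MoBY and touched WT at 1.51. The ratios of all 3 enzymes are descriptions without a test.

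**Figure D3:**
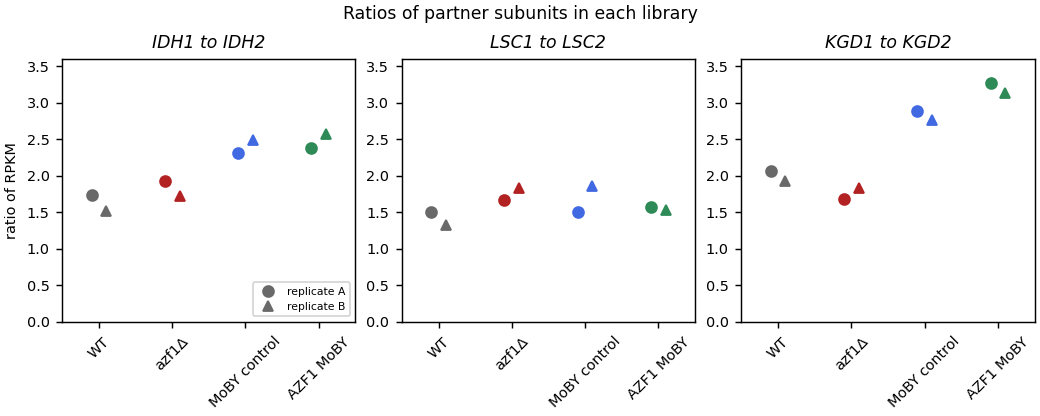
Ratio of RPKM between subunit genes of isocitrate dehydrogenase, succinyl-CoA ligase and 2-oxoglutarate dehydrogenase (y axis, linear from 0) by group (x axis), 1 panel per enzyme, with a circle for replicate A and a triangle for replicate B. *IDH1* to *IDH2* is at most 1.93 without a plasmid and at least 2.31 with one, and *KGD1* to *KGD2* reaches 3.27 in *AZF1* MoBY.

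Over the 8 libraries, 9 members followed each other closely. The Pearson correlation of a member's log2 of RPKM + 1 with the mean of the other 9 was between 0.930 for *LSC2* and 0.993 for *CIT1*. For *IDH1* it was 0.530. These are descriptions over 8 libraries that form 4 groups, and the share of all genes with such correlations was not computed. The libraries in which *IDH1* departed were those with a plasmid, where its 4 values of 150.1 to 187 RPKM fell within or above the WT range of 144 to 168 RPKM while the other 9 members lay below their own WT range. Of 4195 genes at 10 RPKM or more on average, those most like the mean of the 10 members were *HEM2* (r = 0.999), *COX10* (0.996), *RPM2* (0.995), *ARG3* (0.994) and *ATP3* (0.994). *HEM2* encodes a heme synthesis enzyme, *COX10* the farnesyltransferase that makes heme O, the precursor of heme A, *RPM2* the protein of mitochondrial RNase P, *ARG3* ornithine carbamoyltransferase and *ATP3* the gamma subunit of mitochondrial ATP synthase. *HEM2*, closest of all, read 118 and 115 RPKM in WT, 94.35 and 93.7 RPKM in MoBY control and 84.45 and 78.8 RPKM in *AZF1* MoBY.

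**Figure D4:**
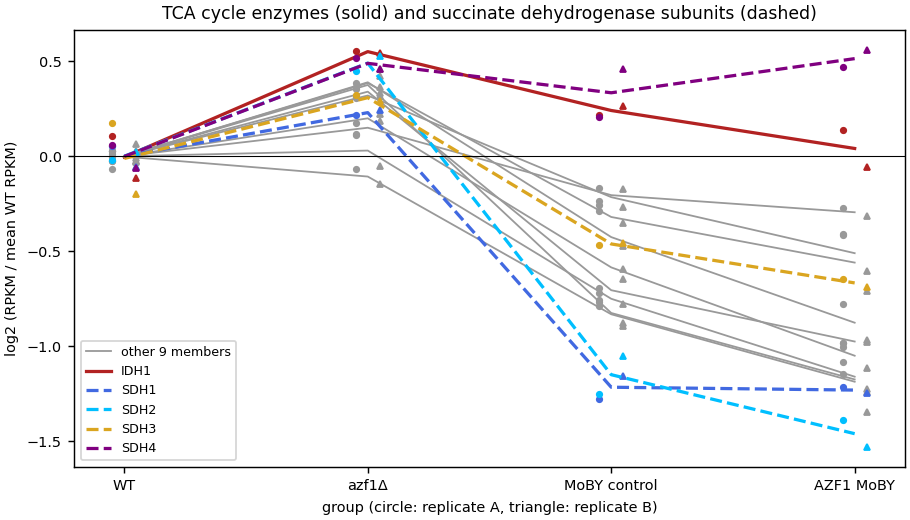
Log2 of RPKM relative to the WT mean (y axis) by group (x axis) for the 10 TCA cycle genes (solid) and the 4 succinate dehydrogenase genes (dashed), with circles for replicate A, triangles for replicate B and 1 line per gene through the group means. *CIT1* goes down to -1.35 in *AZF1* MoBY replicate B, while *IDH1* and *SDH4* stay apart from the other lines in the plasmid libraries.

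Succinate dehydrogenase, which joins the cycle to the respiratory chain between succinyl-CoA ligase and fumarase, was compared as the remaining enzyme of the cycle. *SDH2*, its iron-sulfur subunit, read 278 and 286 RPKM in WT, 385 and 407 RPKM in *azf1Δ*, 119 and 136 RPKM in MoBY control and 108 and 97.7 RPKM in *AZF1* MoBY. It rose by 0.49 ± 0.07 after deletion and fell by 1.14 ± 0.11 with the empty plasmid (limma, adjusted p = 0.0369 and 0.00109). *SDH1*, the flavoprotein, read 202 and 187 RPKM in WT and 80.45 and 87.4 RPKM in MoBY control, and fell by 1.21 ± 0.11 (limma, adjusted p = 0.000699), with 226 and 231 RPKM in *azf1Δ*. Its *AZF1* MoBY libraries, at 83.9 and 82.1 RPKM, lay inside the MoBY control range. None of the 10 members overlapped there, where 28.1% of all genes were lower without overlap, and *SDH1* was not tested against them. The membrane anchors stood on opposite sides of WT in the plasmid libraries, *SDH3* below and *SDH4* above. With the empty plasmid *SDH3* differed by -0.45 and *SDH4* by 0.33 (limma, adjusted p = 0.0714 and 0.107). The anchors were not tested against each other. *SDH3* had means of 487, 603, 353 and 307 RPKM in WT, *azf1Δ*, MoBY control and *AZF1* MoBY, and *SDH4* had 190.2, 267, 241 and 272 RPKM, with *SDH4* called higher after deletion at 0.49 ± 0.08 (limma, adjusted p = 0.0416). *SDH4* was thus above WT in all 6 other libraries. The deletion calls of *SDH2* and *SDH4* were lost after rescaling (adjusted p = 0.0584 and 0.0576).

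*LPD1*, the E3 subunit that 2-oxoglutarate dehydrogenase shares with pyruvate dehydrogenase, passed with extra *AZF1* where *KGD1* and *KGD2* did not, a difference that was not tested. It read 93.05 and 107 RPKM in MoBY control and 69.1 and 64.45 RPKM in *AZF1* MoBY, and fell by 0.57 ± 0.11 with extra *AZF1* (limma, adjusted p = 0.0211), while its difference with the empty plasmid was 0.05. *KGD4*, an accessory subunit, differed by 0.31 after deletion and -0.35 with extra *AZF1*, and fell by 0.68 with the empty plasmid (limma, adjusted p = 0.308, 0.206 and 0.0202).

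Among 8 regulators of these genes, *HAP4* was the 1 gene called in any comparison. *HAP4* read 47.8 and 52.35 RPKM in WT, 71.5 and 70.5 RPKM in *azf1Δ*, 31.8 and 26.2 RPKM in MoBY control and 23.1 and 20.25 RPKM in *AZF1* MoBY. The groups did not overlap and stood in the same order as those of *CIT1*. The share of all genes in that order was not computed, and a link between *HAP4* and the members was not tested. *HAP4* rose by 0.50 ± 0.08 after deletion and fell by 0.77 with the empty plasmid (limma, adjusted p = 0.0462 and 0.00977), and differed by -0.40 with extra *AZF1* (adjusted p = 0.125). Its deletion call was lost after rescaling (adjusted p = 0.0651). None of the retrograde genes passed in these tests. *RTG1*, *RTG2*, *RTG3* and the negative regulator *MKS1* had differences between -0.20 and 0.36 after deletion and between -0.43 and 0.08 with extra *AZF1*. *CIT2*, the peroxisomal citrate synthase that is the classical readout of the retrograde pathway, read 298 and 317 RPKM in WT, 322 and 345 RPKM in *azf1Δ*, 340 and 333 RPKM in MoBY control and 413 and 385 RPKM in *AZF1* MoBY. Its plasmid groups were ordered opposite to *CIT1*, with 0.24 for extra *AZF1* (limma, adjusted p = 0.106).

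Other genes around the cycle were read from lists of isozymes, pyruvate entry, fumarate reductases, mitochondrial carriers and glutamate synthesis, 31 genes in all. After deletion 0 of the 31 were called, with 8 at an unadjusted p under 0.05, where all genes gave 1048 of 5944. With extra *AZF1*, 6 fell and 0 rose, where 6.17% of all genes fell and 10.2% rose. These were *MDH3* (peroxisomal malate dehydrogenase, -0.45), *MPC3* (a subunit of the mitochondrial pyruvate carrier, -0.43), *LAT1* (E2 of pyruvate dehydrogenase, -0.38), *FRD1* (soluble fumarate reductase, -0.51), *GLT1* (glutamate synthase, -0.43) and *GDH1*. *GDH1*, the NADP-dependent glutamate dehydrogenase that uses 2-oxoglutarate, read 440 and 461 RPKM in MoBY control and 226.0 and 236 RPKM in *AZF1* MoBY and fell by 0.96 (limma, adjusted p = 0.00291). That was further than any member of the cycle fell in the same comparison. In limma, the adjusted p of *MDH3*, *MPC3*, *LAT1*, *FRD1* and *GLT1* was 0.0357, 0.0347, 0.0323, 0.0172 and 0.0252. Outcomes of the alternatives are not given for these calls.

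With the empty plasmid and G418, 8 of the 31 fell and 0 rose, where 10.6% of all genes fell and 13.2% rose. They were the mitochondrial NADP isocitrate dehydrogenase *IDP1* (-0.65), *MPC3* (-0.55), the pyruvate dehydrogenase E1 gene *PDA1* (-0.45), the pyruvate carboxylase *PYC1* (-0.80), the dicarboxylate carrier *DIC1* (-0.51), the glutamate dehydrogenases *GDH3* (-1.38) and *GDH2* (-0.80), and the glutamine synthetase *GLN1* (-0.95). Their adjusted p in limma ran from 0.00179 for *GDH3* to 0.0382 for *DIC1*. *PYC1*, which makes oxaloacetate from pyruvate, read 163 and 149 RPKM in WT, 186 and 185 RPKM in *azf1Δ*, 87.4 and 91.1 RPKM in MoBY control and 75.6 and 77.7 RPKM in *AZF1* MoBY, in the group order of *CIT1*. In the direct test of the *AZF1* MoBY response against that of *azf1Δ*, *SDH2* (-0.80), *LPD1* (-0.80), *HAP4* (-0.90), *PYC1* (-0.47), *IDP1* (-0.51), *MDH3* (-0.57), *MPC3* (-0.68), *FRD1* (-0.69), *GDH1* (-1.25) and *GLT1* (-0.53) were among the called genes, in the direction of the members.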

How the data were processed

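Libraries of rRNA-depleted RNA were strand-specific and single-end. By the study's methods, the authors trimmed reads with Trimmomatic 0.3.0, aligned them with Bowtie2 2.2.2 to the genome of the parent strain Y22-3, counted reads per gene with HTSeq 0.6.0 and scaled the counts to RPKM. The strand setting of the counting is not given in the sources used here. The deposited values are log2 RPKM to 2 decimals for 6328 genes in 8 libraries. After adding 1 RPKM, log2 values were fitted with limma 3.58.1 (R 4.3.3, variance trend), each pairwise comparison on its 4 libraries and on genes reaching 1 RPKM in 2 or more libraries, and the difference of responses on all 8. This scale understates the change of low genes. Fits were tested on simulated data. Depth was read from RPKM steps with S288C gene lengths (RefSeq R64, another genome than the authors used, so no coordinates or sequences are given), where 84.7% to 89.1% of low values lay within 0.15 of a whole read. Counting errors cover counting only, since reads are not independent molecules. With 2 libraries per group, p-values set each difference against only the spread between these samples. limma moderates that spread toward a trend over all genes tested.

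The members and all gene lists were chosen with earlier results of these data known. The named genes are the 10 members, *AZF1*, the *SDH* genes, *LPD1*, *KGD4*, *CIT2*, *PYC1*, *HAP4*, *RTG1*, *RTG2*, *RTG3*, *MKS1*, the called genes of each list (the 4 largest per direction where more were called) and the 5 genes most like the members. *KGD4* is listed under an older name and was matched by its systematic name. The value of 1 called gene is not reported here. Alternatives were pseudocounts of 0.1 and 0, no filter, a filter at 10 RPKM, median-ratio rescaling, no variance trend, 1 fit of all 8 libraries, a replicate block, each library left out, and an adjusted p under 0.01.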

Additional observations from a re-analysis of the deposited data

How the results depend on the processing

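The median difference of the members kept its sign under every alternative run in each comparison. For *azf1Δ* against WT the 1 called member became 0 without the filter, with rescaling, without the variance trend, with the replicate block, at an adjusted p under 0.01 and with any library left out (0 to 0), while the median was 0.30 to 0.33 with a library left out. Calls over all genes went from 103 to 5 without the filter, 65 with rescaling, 5 without the trend, 4 at 0.01 and 0 with the block. For *AZF1* MoBY against MoBY control the 2 called members became 0 under the same settings (0 to 0 with a library left out) and 5 with all 8 libraries in 1 fit, and the median moved from -0.32 to -0.24 with rescaling and to between -0.39 and -0.23 with a library left out. All-gene calls there went from 988 to 599 without the trend, 1437 in 1 fit and 323 at 0.01. For MoBY control against WT the 5 members became 0 to 4 with a library left out, and 1422 genes became 688 at 0.01. For the difference of responses the 7 members became 0 at 0.01 and 0 to 7 with a library left out, the median moved to -0.48 with rescaling and to between -0.71 and -0.53 with a library left out, and 897 genes became 300 at 0.01. Where a library is left out, its group's lone sample is assumed to vary like the other group. In the difference of responses it is assumed to vary like the other groups pooled. For *AZF1* MoBY against MoBY control, rescaling moved the median of all genes from 0.005 to 0.082. Relative to the median of all genes, the members stood there at -0.324 before and -0.319 after rescaling. The cause of the moves in this section was not tested.

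Samples share only a replicate letter: deviations of same-lettered libraries correlated at -0.107 to 0.0327 between groups. With the replicate block 0, 0, 6 and 8 members were called in the 4 tests in the order above.

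Signs that reversed belonged to values that passed no test. With rescaling, *MDH1* after deletion was at -0.0171, *SDH1* with extra *AZF1* at 0.067 and *RTG1* in the difference of responses at 0.0444. With a library left out, *MDH1* after deletion ran from -0.0497 to 0.109. With extra *AZF1*, *SDH1* ran from -0.0741 to 0.0445, *RTG2* from -0.16 to 0.256 and *RTG3* from -0.315 to 0.104. With the empty plasmid, *LPD1* ran from -0.0495 to 0.1485 and *MKS1* from -0.122 to 0.140.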
